A study of Mus musculus with 32 samples.

Results

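The genes described here encode the proteins of the mitochondrial ribosome. They were taken from the gene table by symbol, as every entry with a name of the form Mrpl or Mrps followed by a number and at most 1 letter. The rule found 77 of 16634 entries, of which 48 are Mrpl genes, named for the large subunit, and 29 are Mrps genes, named for the small subunit. Their RNA was followed in gastrocnemius, a hind limb muscle. It came from 32 mice of mixed genetic background at an age of 10 weeks. The mutants carried Sf1-Cre together with floxed Sirt1 alleles (Sf1-Cre; Sirt1loxP/loxP). By this cross the series aims the loss of the deacetylase SIRT1 at SF1 neurons of the hypothalamus and not at muscle. Only muscle was sampled, so that a loss in other tissues cannot be seen here. The controls carried, per the series' own description, the same floxed alleles (Sirt1loxP/loxP) with no Cre, so that an effect of the Cre transgene and of the deletion cannot be told apart. Each genotype was sampled at Zeitgeber time (ZT, hours after lights on) 0, 6, 12 and 18. Every group held 4 mice, which makes 16 of each genotype. The series asks how loss of SIRT1 in these neurons affects daily gene expression in muscle.

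Mitochondrial ribosomes translate the few proteins that mitochondrial DNA encodes, which are core subunits of oxidative phosphorylation. All ribosomal proteins of the organelle are encoded in the nucleus, made in the cytosol and imported. Part of them have bacterial counterparts and the others were added during the evolution of the organelle. Muscle fibres are rich in mitochondria and depend on this translation. Symbols do not always give the place of a protein: in human structures Mrps18a and Mrps30 sit in the large subunit, and Mrps36 is now known as a component of the alpha-ketoglutarate dehydrogenase complex. By their numbers, 28 of the Mrpl genes and 16 of the Mrps genes have a name shared with a bacterial protein, and 20 Mrpl and 13 Mrps genes do not.

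The 77 genes are spread over 17 chromosomes and have short coding sequences, with a median of 576 bases and a range of 195 to 1326 bases in the GENCODE annotation of the same genome. Transcription of 18 of them starts within 1000 bases of a coding neighbour that runs in the opposite direction, as for Mrpl32 and the proteasome gene Psma2, whose starts lie 75 bases apart. The strand setting of the authors' counting is not given in the sources used here. As 35 of the genes overlap a gene on the other strand and 13 a gene on the same strand, reads may be shared in those places. Pairs of this kind are Mrpl18 with Tcp1, Mrpl43 with the mitochondrial helicase gene Twnk, Mrpl48 with Rab6a and Mrpl33 with Rbks. In 3 entries the deposited table joins the gene with others under a single value, namely Mrps23 with Cuedc1 and 2210416O15Rik, Mrps6 with Slc5a3, and Mrpl53 with Ccdc142.

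Promoter sequences of 68 of the 77 genes were found in RefSeq (assembly GRCm38.p6), as windows of 300 bases from 250 before to 50 after the start of transcription. Both strands were searched for 5 motifs of factors that are known to act on genes of mitochondrial biogenesis or on the clock. CCGGAAG, the core bound by the ETS factor GABP, was in 24 of the 68 windows (35.3%), against 18.0% of the windows of the other genes tested and 9.12% of all windows. ATGGCGG, a core of YY1, was in 13 of them (19.1%), against 8.38% and 4.19%. The palindrome of NRF1, which is GCGCA followed by its reverse complement, was in 3 of them (4.41%), against 2.1% and 0.977%. Its form with a free base between GCGCA and GCGC, which includes the palindrome, was in 13 of them (19.1%), against 10.6% and 4.78%. CACGTG, the E-box that clock factors bind, was in 5 of them (7.35%), against 10.6% and 7.24%, and the 5 genes were Mrpl2, Mrpl20, Mrpl36, Mrpl37 and Mrps18c. The median GC content was 58.2% in these windows, 61.0% in those of the other genes tested and 52.7% in all. Apart from that of Mrps11 (position -109), the YY1 matches lay after the start, at positions from 2 (Mrps5) to 30 (Mrpl50). A match is a run of letters and not a measured site.

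The 3 genes with the NRF1 palindrome are shown because Mrpl39, the only member with a called daily rhythm, is among them, and Mrpl43 is shown for the lowest p-value of the genotype comparison at ZT6 and for its 2 ETS cores. Capitals mark the motifs, and each sequence reads 5′ to 3′ on the strand of the gene. For Mrpl39 and Mrpl32 the 30 bases around the match are given, and for Mrpl9 and Mrpl43 the 100 bases before the start. GENCODE starts Mrpl39 and Mrpl32 further upstream, 498 and 128 bases from the RefSeq start. Their matches thus lie before the RefSeq start but inside the gene as GENCODE draws it.
Mrpl39, chr16:84735350-84735379, minus strand: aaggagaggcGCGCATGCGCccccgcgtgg
Mrpl32, chr13:14613105-14613134, minus strand: tttgacccttGCGCATGCGCaagaggggcc
Mrpl9, chr3:94443236-94443335, plus strand: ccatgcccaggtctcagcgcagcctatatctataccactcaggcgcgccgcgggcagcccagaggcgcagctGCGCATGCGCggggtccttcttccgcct
Mrpl43, chr19:45006443-45006542, minus strand: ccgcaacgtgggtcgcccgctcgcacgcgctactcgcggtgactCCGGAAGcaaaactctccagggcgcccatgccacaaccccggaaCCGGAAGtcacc

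RNA levels are given as the FPKM values that the authors deposited, in which fragments are set against the length of the transcript and the sequenced total. Depth in reads is not known from such values, and low values gave relative depths of 0.803 to 1.39 between libraries. The libraries had the pattern of fast muscle. The fast troponin genes Tnnt3, Tnni2 and Tnnc2 averaged 19726, 17985 and 16226 FPKM. Their slow counterparts Tnnt1, Tnni1 and Tnnc1 averaged 121, 62.1 and 175 FPKM. The creatine kinase gene Ckm had a mean of 18282 FPKM. The skeletal actin gene Acta1 is listed at 0 in 12 libraries, 2 in each group at ZT0, 6 and 12, and at 17234 to 23914 FPKM in the other 20. Such a 0 for a main transcript of muscle may be a failed estimate, and it also lowers the summed FPKM of its library. The other 9 genes of the list used for fast fibres summed to 62858 to 138973 FPKM. Sirt1 itself, which the cross does not target in muscle, averaged 5.20 ± 0.731 FPKM in mutants and 5.47 ± 0.506 FPKM in controls (SD, n = 16 each; limma adjusted p = 0.770). The lowest sums were those of library 1 of the mutants at ZT12 (62858 FPKM) and library 2 of the mutants at ZT0 (65766 FPKM), in which the fast troponin gene Tnnt3 was at 2812 and 569 FPKM, against a median of 19898 FPKM. Both libraries also had low values of Mrps21 and Mrpl18. Library 0 of the mutants at ZT12 was low in Tnnt3 as well, at 5678 FPKM, with a sum of 85431 FPKM. In whole muscle, fewer cells of a type and less RNA per cell cannot be told apart.

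The mitochondrial ribosomal protein genes were moderately expressed. Their mean levels over the 32 libraries had a median of 30.9 FPKM with quartiles of 18.8 and 53.6 FPKM, against a median of 7.19 FPKM for the 11975 genes tested. The nuclear genes of oxidative phosphorylation, which make the partners of the mitochondrial translation products, had a median of 338 FPKM. The 85 entries found by symbol for the cytosolic ribosome had a median of 21.1 FPKM. They ran from 0.0598 to 866 FPKM, with quartiles of 2.12 and 95.6 FPKM. Entries near 0 thus lower that median, and it does not give the level of a typical gene of that ribosome. Genes that assemble the mitochondrial ribosome or modify its RNA were lower, with a median of 8.90 FPKM, as were the mitochondrial tRNA ligases with 8.82 FPKM and the translation factors with 14.5 FPKM. Grouped by number, Mrpl genes with a name shared with a bacterial protein had a median of 41.9 FPKM and the other Mrpl genes 27.3 FPKM. For Mrps genes the medians were 30.2 and 20.4 FPKM in the same order. These groups rest on the symbols and not on a comparison of sequences.

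The RNA levels of the members ranged widely, although nearly all of their products are parts of the same particle. A mean of at least 100 FPKM was reached by 10 genes, 60 lay between 10 and 100 FPKM and 7 were below 10 FPKM. The highest were Mrpl33 with 320 ± 50.4 FPKM and Mrps21 with 314 ± 66.0 FPKM (SD, n = 32 each), whose ranges over the libraries overlapped (248 to 458 and 99.8 to 472 FPKM). Both encode small proteins of bacterial type, for the large and the small subunit. Mrpl42 followed with 244 ± 26.3 FPKM, and Mrpl30, Mrpl18, Mrpl12 and Mrps23 came next with means of 173, 144, 131 and 128 FPKM. At the lower end, Mrps33, Mrps36 and Mrpl19 averaged 4.25, 4.38 and 5.35 FPKM. Mrpl23 stood apart with a mean of 0.200 FPKM, a highest value of 0.743 FPKM and a listed value of 0 in 5 libraries. Whether these low values are failed estimates was not tested. Mrpl23 alone failed the filter of at least 1 FPKM in at least 4 libraries, so that 76 of the 77 genes were tested. The 3 genes of the Mrps18 family differed as well, at 96.4 FPKM for Mrps18a, 63.4 FPKM for Mrps18c and 14.4 FPKM for Mrps18b.

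**Figure D1:**
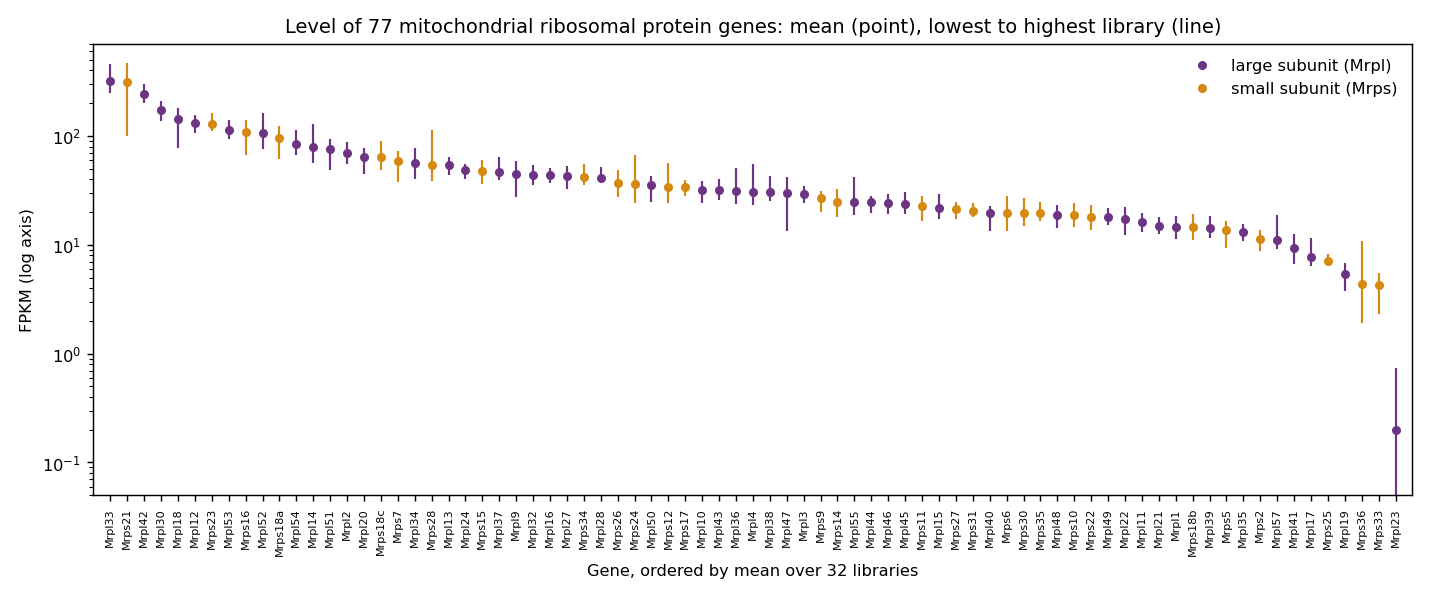
Mean RNA level of each of the 77 mitochondrial ribosomal protein genes over 32 libraries (points, FPKM on a log axis) with the range from the lowest to the highest library (lines). The levels run from 0.200 FPKM for Mrpl23, whose line is drawn to the edge because its lowest value is 0, to 320 FPKM for Mrpl33, and most genes lie between 10 and 100 FPKM.

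Within a gene the levels were stable. The ratio of the highest to the lowest of the 32 libraries had a median of 1.69 over the 76 genes above 0 in every library, and ran from 1.31 to 5.65. On the log2(FPKM + 1) scale used for all tests, the SD over the 32 libraries had a median of 0.17 for the 76 genes tested and 0.19 for all genes tested. Within groups of 4 mice the medians were 0.15 and 0.18. The widest range was that of Mrps36, a gene of low level (1.91 to 10.8 FPKM). Mrps21 had 99.8 FPKM in library 2 of the mutants at ZT0 against 337 to 356 FPKM in the other mutants of that time.

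**Figure D2:**
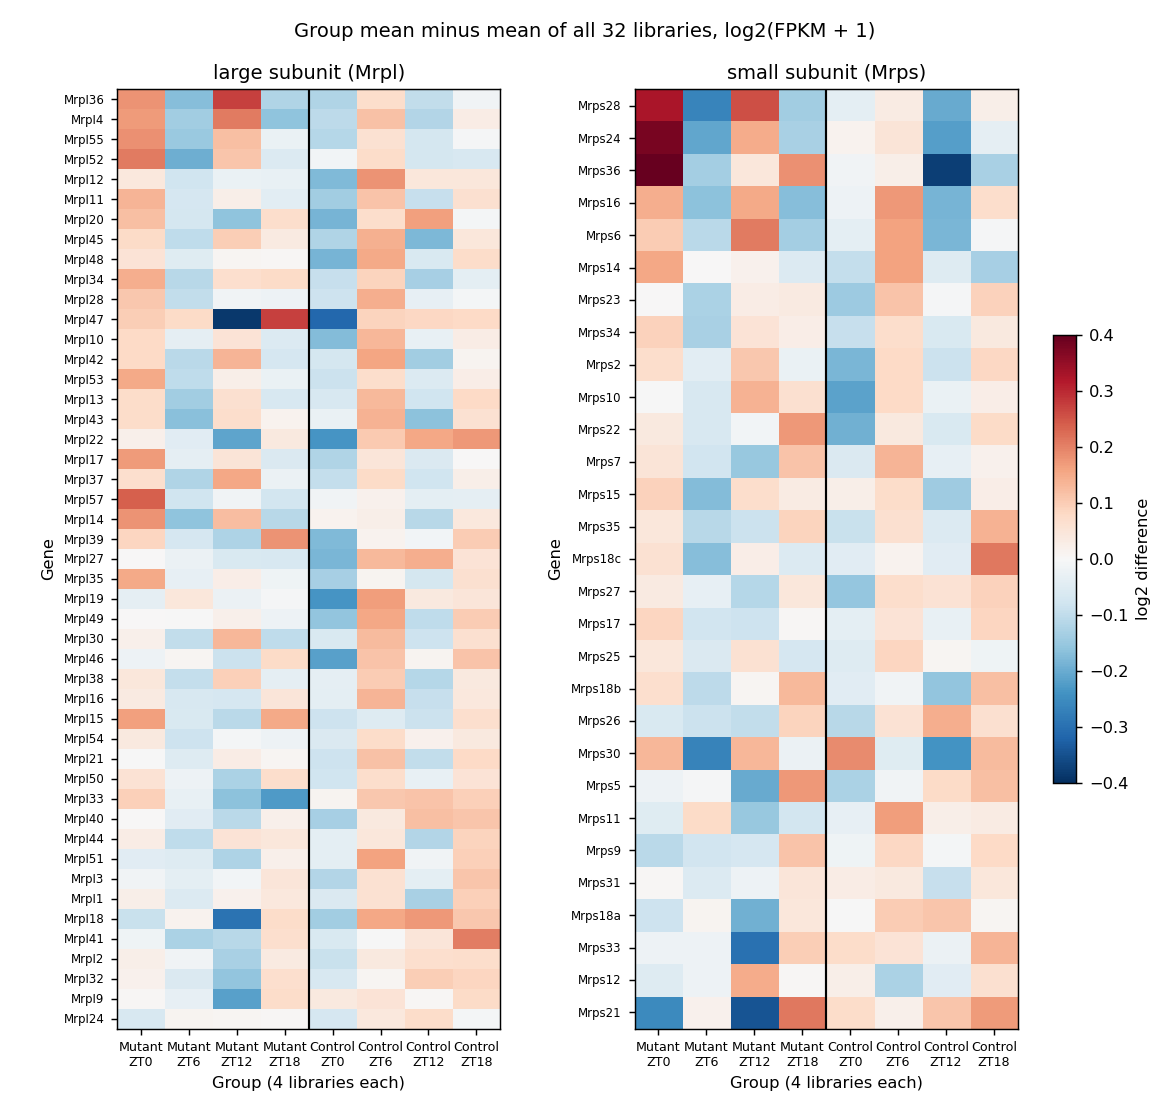
Group means of the 76 tested genes as differences from the mean of each gene over the 8 groups (log2 scale), with mutants at ZT0, 6, 12 and 18 left of controls at the same times. Most genes are above their mean in mutants at ZT0 and in controls at ZT6, and below it in mutants at ZT6 and in controls at ZT0.

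Averaged over the 4 times, the estimates for these genes were split between higher and lower in mutants. No gene passed the limma test at an adjusted p of 0.05, beside 0.0251% of all genes tested. The estimates were higher in mutants for 35 of 76 genes and lower for 41, with a median log2 difference of -0.0084, against 0.0023 for all genes tested, of which 51.3% were higher. With values rescaled to an equal total per library (TPM, transcript shares), 50 of the 76 were higher, beside 64.4% of all genes. An unadjusted p under 0.05 was reached by 2 genes, beside 6.48% of all genes tested. Mrps36 had 0.25 ± 0.10 (log2 difference ± SE, limma adjusted p = 0.756), and Mrpl33 had -0.16 with the same adjusted p.

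At ZT0, at lights on, the estimates pointed to slightly more RNA of most of these genes in mutants. They were above 0 for 66 of 76 genes, against 47.5% of all genes tested, and 64 to 69 of them were higher under each other scaling and weighting tried. The median log2 difference was 0.14, against -0.0098 for all genes. No gene passed the limma test (background 0.0167%). An unadjusted p under 0.05 was reached by 15 of 76, beside 8.46% of all genes tested. All 15 were higher in mutants, as were 4.17% of all genes at this p. Of the Mrpl genes 45 of 47 were higher, and of the Mrps genes 21 of 29.

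Mrpl39, which encodes a large-subunit protein with no bacterial counterpart (XLOC_008431, chr16:84717579-84735302 in mm10, the build of the files), had 14.4, 16.3, 14.9 and 15.7 FPKM in mutants at ZT0, against 13.7, 11.7, 12.4 and 12.5 FPKM in controls. Every mutant lay above every control, and the difference was 0.26 ± 0.066 (log2 ± SE, limma adjusted p = 0.348). Mrps2, a small-subunit protein of bacterial type (XLOC_011197, chr2:28468065-28471177), had 13.6, 11.2, 12.2 and 10.8 FPKM in mutants and 10.3, 8.81, 10.1 and 10.2 FPKM in controls, again without overlap. Its difference was 0.25 (limma adjusted p = 0.413). Mrpl53, which shares its entry with Ccdc142, was the only other gene without overlap at this time: its lowest mutant was at 116 FPKM and its highest control at 114 FPKM. These 3 genes compare with 1.16% of all genes tested whose mutants all lay above the controls. No member had all mutants below all controls, as 1.45% of all genes did.

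Other genes with low unadjusted p-values at ZT0 overlapped between genotypes. Mrpl35 (XLOC_017913, chr6:71812996-71823784), of bacterial type, had 15.4, 14.1, 15.4 and 13.2 FPKM in mutants and 13.6, 10.8, 11.4 and 11.3 FPKM in controls. Only control library 0 reached into the range of the mutants, and the difference was 0.28 (limma adjusted p = 0.391). Mrpl11, a protein of the stalk base that contacts translation factors, had 17.8, 18.3, 18.3 and 16.3 FPKM in mutants and 16.5, 13.9, 13.3 and 14.2 FPKM in controls. Here a single mutant lay below the highest control (difference 0.27, limma adjusted p = 0.480). Mrpl17 and Mrpl10 had differences of 0.29 and 0.25. Control library 0 was the highest control for all 4 of Mrpl39, Mrps2, Mrpl35 and Mrpl11, and without it 70 of 76 genes were higher in mutants with a median of 0.18. Without mutant library 2, the library low in Tnnt3, Mrps21 and Mrpl18, 72 of 76 were higher with a median of 0.15.

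At ZT6 the direction was the opposite. The estimate was lower in mutants for 74 of 76 genes, against 57.5% of all genes tested, with a median log2 difference of -0.15 against -0.031 for all genes. The higher ones were Mrps12 and Mrps5. No gene passed the limma test (background 0.0167%). An unadjusted p under 0.05 was reached by 13 of 76, beside 10.4% of all genes. All 13 were lower in mutants, as were 6.8% of all genes at this p. All 47 Mrpl genes tested and 27 of 29 Mrps genes were lower. In 15 genes every mutant lay below every control, beside 8.73% of all genes tested, and in none did every mutant lie above, beside 3.39%.

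Mrpl43, a large-subunit protein with no bacterial counterpart (XLOC_010950, chr19:45005013-45006442), had 25.9, 28.2, 29.5 and 28.5 FPKM in mutants at ZT6, against 34.8, 37.2, 34.6 and 33.1 FPKM in controls. Every mutant was below every control, with a difference of -0.31 ± 0.10 (log2 ± SE, limma adjusted p = 0.471). Mrpl42, the most abundant of the members without a bacterial counterpart (XLOC_002291, chr10:95480805-95501927), had 223, 227, 234 and 217 FPKM in mutants and 283, 291, 267 and 247 FPKM in controls. Again no mutant reached a control, and the difference was -0.27 with the same adjusted p of the limma test. Mrps23, whose entry also holds Cuedc1, had 118, 118, 120 and 112 FPKM in mutants and 137, 145, 141 and 131 FPKM in controls, also without overlap.

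Mrpl13 and Mrpl28, both of bacterial type, completed the 5 genes with the lowest p-values at ZT6. Mrpl13 had 44.8, 49.7, 49.7 and 49.4 FPKM in mutants and 56.8, 61.1, 62.1 and 54.2 FPKM in controls. Mrpl28 had 37.4, 39.6, 38.3 and 37.0 FPKM in mutants and 42.8, 47.0, 48.1 and 43.4 FPKM in controls. Neither gene overlapped between genotypes, and the differences were -0.27 and -0.24. Mrpl12, the stalk protein that also binds the mitochondrial RNA polymerase, had 113, 117, 140 and 123 FPKM in mutants and 154, 151, 147 and 137 FPKM in controls, with mutant library 2 above the lowest control (difference -0.26). The other genes without overlap were Mrpl4, Mrpl30, Mrpl36, Mrpl37, Mrpl38 and Mrpl52 of the Mrpl genes, and Mrps15, Mrps16, Mrps28 and Mrps30 of the Mrps genes. When libraries were given weights by how well they matched their group, 4 genes passed the limma test at ZT6, with 232 of all 11975 genes (1.94%). They were Mrpl43 (adjusted p = 0.0381), Mrpl42 and Mrps23 (adjusted p = 0.0446 each) and Mrpl13 (adjusted p = 0.0478).

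The size of the difference at ZT6 depended on the scaling of the libraries, while the direction of the majority did not. The summed FPKM of all genes was 467703 ± 17930 in mutants and 505164 ± 11997 in controls at ZT6 (SD, n = 4 each). After rescaling to TPM, 52 of 76 genes were lower with a median of -0.045, and 66.4% of all genes were higher with a median of 0.062. After quantile normalisation 59 of 76 were lower with a median of -0.073, and after centring on genes of similar length 66 were lower with a median of -0.081. In that last scaling 60.8% of all genes were higher. At ZT0 the same 3 scalings left 65, 64 and 65 genes higher.

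The difference also ran with coding length over the genes that are not members. At ZT6 the median difference was -0.11 for genes with up to 500 coding bases, -0.082 for 500 to 1000, -0.038 for 1000 to 1500, -0.0066 for 1500 to 2500 and 0.040 above. At ZT0 the order was inverse, with 0.068, 0.030, 0.00035, -0.025 and -0.068. At ZT12 the medians were 0.13, 0.12, 0.084, 0.051 and -0.0032 in the same order of lengths, and at ZT18 they lay between -0.053 and -0.0033. Among the 2278 genes whose coding length lay between the quartiles of the members (438 to 882 bases), 58.1% were higher in mutants at ZT0 with a median of 0.031, 30.9% at ZT6 with a median of -0.087 and 70.3% at ZT12 with a median of 0.12. The members had medians of 0.14, -0.15 and 0.060 at these times, so that at ZT12 theirs was the lower. The part of length in the members' differences was not tested.

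In all, 65 of the 76 genes were higher in mutants at ZT0 and lower at ZT6, beside 34.1% of all genes tested. A library score, the mean over the 76 genes of the difference from each gene's mean, summarised each mouse. At ZT0 the scores were 0.18, 0.049, 0.063 and -0.031 in mutants and 0.048, -0.12, -0.13 and -0.12 in controls. At ZT6 they were -0.14, -0.040, -0.037 and -0.083 in mutants and 0.11, 0.11, 0.10 and -0.0071 in controls. Control library 0 at ZT0 lay within the mutants, and the groups did not overlap at ZT6. The scores of the length-matched genes overlapped at both times, with 0.031, 0.070, 0.12 and -0.082 in mutants and 0.014, 0.035, 0.038 and -0.032 in controls at ZT0. At ZT6 they were -0.062, 0.023, -0.042 and -0.041 in mutants and 0.0098, 0.022, 0.027 and 0.017 in controls. There only mutant library 1 reached the controls, and the other mutants lay below all of them.

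**Figure D3:**
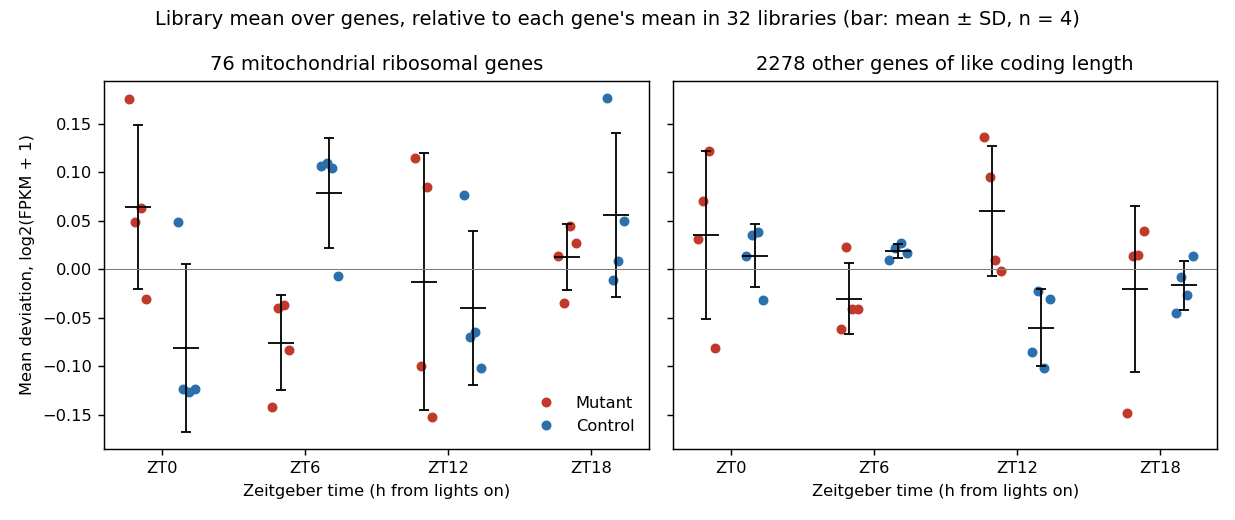
Mean log2 difference from each gene's overall mean in every library, for the 76 tested members (left) and for the 2278 genes of similar coding length (right), with mutants left of controls at each of ZT0, 6, 12 and 18. Each point is a mouse, and bars give the mean ± SD of 4. For the members, mutants at ZT6 (-0.14 to -0.037) lie below controls (-0.0071 to 0.11), and at ZT0 all but the highest control lie below the mutants.

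At ZT12 the members were split. The estimate was higher in mutants for 45 of 76 genes (59.2%), against 63.6% of all genes tested, and the median of 0.060 was close to that of all genes (0.064). This majority was lost with quantile normalisation (36 higher), median centring (38 higher) and centring on genes of similar length (26 higher). With the last of these the median of all genes was -0.064, and that of the 76 genes was -0.068. No gene passed the limma test (background 0.0251%). An unadjusted p under 0.05 was reached by 20 genes, beside 17.4% of all genes, with 11 higher and 9 lower, where 12.8% and 4.57% of all genes were higher and lower at this p.

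The higher members at ZT12 were led by Mrpl42, with 277, 301, 279 and 219 FPKM in mutants and 262, 211, 214 and 199 FPKM in controls. A single mutant, library 3, was below the highest control, and the difference was 0.28 (limma adjusted p = 0.160). Mrps6, which shares its entry with the transporter gene Slc5a3, had 28.3, 23.96, 20.2 and 19.2 FPKM in mutants and 16.1, 16.1, 18.1 and 18.1 FPKM in controls. It was the only member with every mutant above every control, beside 5.67% of all genes. Mrps30 (XLOC_006002, chr13:118380109-118387252) had 26.8, 24.7, 18.6 and 16.3 FPKM in mutants and 17.6, 16.1, 16.1 and 14.9 FPKM in controls, and its mutants spread over a wide range. None of these genes was called with all libraries. Without mutant library 3, 3 members passed the limma test, with 446 of all genes (3.72%), namely Mrpl42 (adjusted p = 0.0257), Mrps30 (adjusted p = 0.0404) and Mrps24.

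The lower members at ZT12 included Mrps5, Mrpl20, Mrpl22 and Mrpl32, in which every mutant lay below every control, beside 1.73% of all genes. Mrps5, of bacterial type, had 12.5, 9.28, 12.0 and 13.2 FPKM in mutants and 15.5, 13.5, 14.5 and 13.9 FPKM in controls (difference -0.28, limma adjusted p = 0.186). Mrpl18, which in human cells also takes part in the import of a cytosolic ribosomal RNA, had 120, 77.2, 147 and 131 FPKM in mutants and 180, 166, 155 and 144 FPKM in controls (XLOC_009137, chr17:12911354-12916091). All mutants but library 2 lay below the controls, library 1 by the widest margin, and the difference was -0.47 (limma adjusted p = 0.186). Mrps21 had 209, 150, 355 and 295 FPKM in mutants and 378, 349, 312 and 284 FPKM in controls. The same mutant library 1 was again the lowest. Mutant library 0, in which Tnnt3 was also low (5678 FPKM), was the next lowest for both Mrps21 and Mrpl18.

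At ZT18 few members had a low p-value. The estimate was lower in mutants for 54 of 76 genes, against 55.7% of all genes, with a median of -0.050 against -0.015. Without control library 0 the majority was gone, with 39 genes higher, 37 lower and a median of 0.0027. No gene passed the limma test (background 0.0167%), and 2 had an unadjusted p under 0.05, beside 2.88% of all genes. Mrpl33 (XLOC_015761, chr5:31613950-31622644) had 256, 300.3, 264 and 261 FPKM in mutants and 355, 282, 372 and 348 FPKM in controls. Mutant library 1 and control library 1 overlapped, and the difference was -0.32 (limma adjusted p = 0.9995). Mrps18c had a difference of -0.26. Every mutant lay below every control for 2 of the 76 genes, Mrpl41 and Mrps2, beside 1.66% of all genes. Mrps2, whose mutants all lay above the controls at ZT0, was called at neither time.

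**Figure D4:**
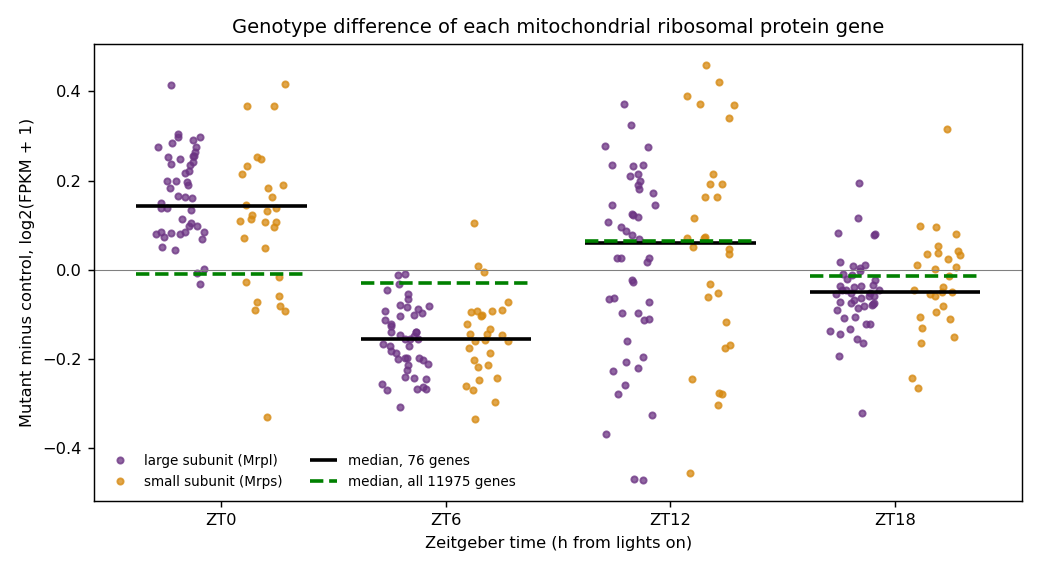
Log2 difference of mutants from controls at ZT0, 6, 12 and 18 for each of the 76 tested genes, with Mrpl and Mrps genes in separate colours, the median of the 76 genes (black) and the median of all 11975 genes (green, dashed). The medians of the 76 genes are 0.14, -0.15, 0.060 and -0.050. Most points lie above 0 at ZT0 and below it at ZT6, under each scaling tried, while the majority at ZT12 turned with the scaling.

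Whether the genotype difference varied between the times was tested directly. None of the 76 genes, and none of all 11975 genes (0%), passed the F test of limma at an adjusted p of 0.05. Among the members 28 of 76 had an unadjusted p under 0.05, beside 14.1% of all genes. These were 19 of 47 Mrpl and 9 of 29 Mrps genes. Mrpl39 and Mrpl42 had the largest F values (6.93 and 6.89, limma adjusted p = 0.209 each), followed by Mrps2 with 6.28 (adjusted p = 0.216), Mrpl43 with 5.28 (adjusted p = 0.232) and Mrpl11 with 5.04 (adjusted p = 0.237). Without library 3 of the mutants at ZT12, Mrpl42 passed (limma adjusted p = 0.0442), with 0.209% of all genes.

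Mrpl42 and Mrpl43 had means that lay on different sides of the controls at different times. In mutants Mrpl42 averaged 257 ± 8.24, 225 ± 7.08, 269 ± 35.1 and 232 ± 2.63 FPKM at ZT0, 6, 12 and 18, and in controls 233 ± 29.5, 272 ± 19.4, 222 ± 27.8 and 245 ± 13.5 FPKM (SD, n = 4 each). The mean was higher in mutants at ZT0 and ZT12 and lower at ZT6 and ZT18. Only at ZT6 did the genotypes not overlap: at ZT0 control library 0 (277 FPKM) lay above every mutant, and at ZT12 mutant library 3 lay below a control. The means of Mrpl43 had the same order at each time, at 33.7, 28.0, 33.5 and 31.95 FPKM in mutants and 31.1, 34.9, 28.2 and 33.1 FPKM in controls.

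**Figure D5:**
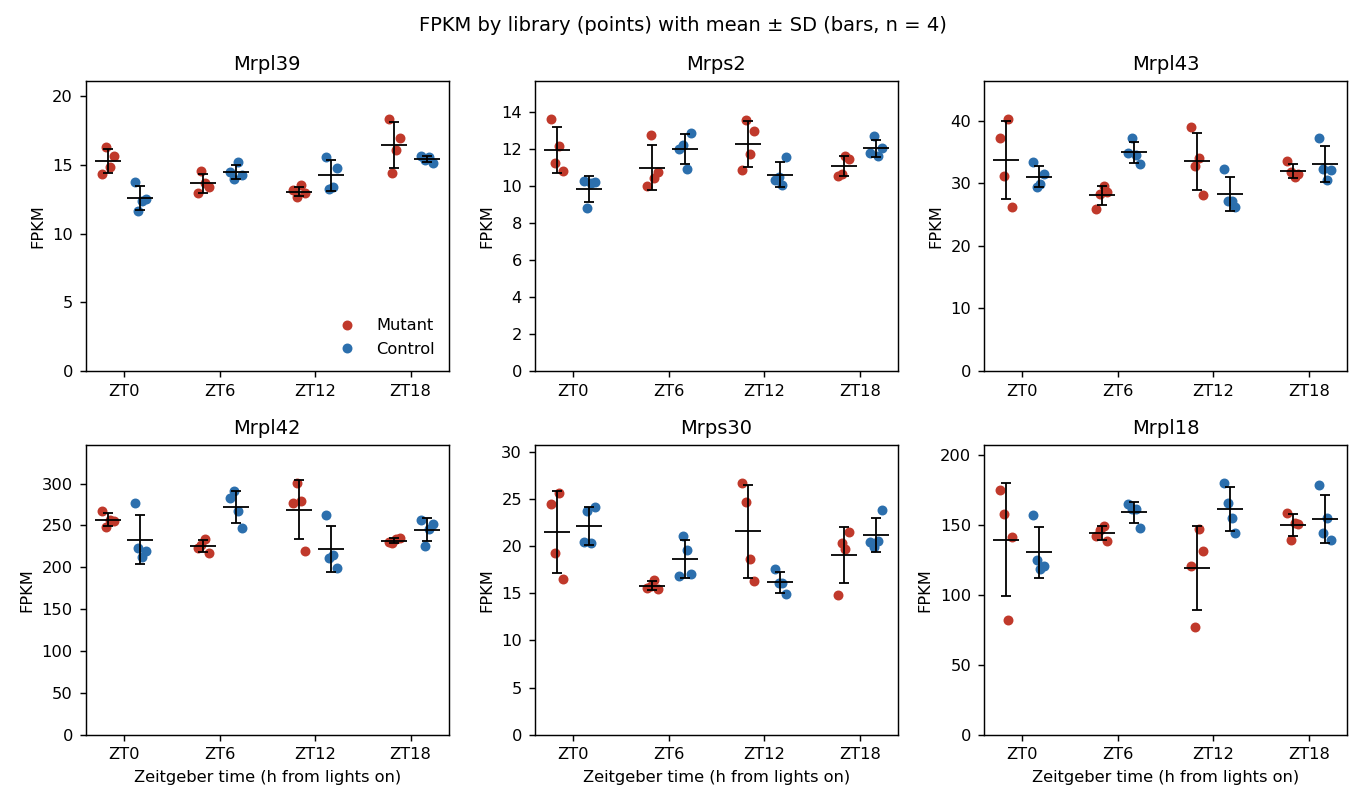
RNA level (FPKM) of Mrpl39, Mrps2, Mrpl43, Mrpl42, Mrps30 and Mrpl18 in every library, with mutants left of controls at each of ZT0, 6, 12 and 18. Each point is a mouse, and bars give the mean ± SD of 4. Mrpl39 has no overlap at ZT0, Mrpl43 and Mrpl42 have none at ZT6, and 1 mutant at ZT0 and 1 at ZT12 are far below the rest for Mrpl18.

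Few of these genes varied with the time of day. In mutants, Mrpl39 was the only one of 76 with a 24 h rhythm that passed the limma test, beside 3.92% of all genes tested. Its values were 13.2, 12.7, 13.5 and 12.9 FPKM at ZT12 and 18.4, 14.4, 16.1 and 16.99 FPKM at ZT18, with 13.0, 14.6, 13.7 and 13.4 FPKM at ZT6. The ZT12 mutants were all below those of ZT0 and ZT18. The amplitude was 0.16 (log2, from mean to peak) with a peak at ZT 20.7 (limma adjusted p = 0.00881). An unadjusted p under 0.05 was reached by 3 of 76 genes, beside 14.4% of all genes, and the others were Mrpl15 (amplitude 0.17, adjusted p = 0.123) and Mrps35 (amplitude 0.12, adjusted p = 0.176).

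The call for Mrpl39 in mutants kept its side of the threshold without any single library (limma adjusted p from 0.00294 to 0.0269). It was lost when only the 4 mutant groups were fitted (adjusted p = 0.102, 2.08% of all genes called), with TPM (adjusted p = 0.227, 3.67% called) and with centring on genes of similar length (adjusted p = 0.0528, 3.83% called). Without library 2 of the mutants at ZT0, Mrps5 passed as well (limma adjusted p = 0.0441, 4.77% of all genes called), and with library weights Mrps35 did (limma adjusted p = 0.0444, 6.28% called). Pools of libraries and times of day cannot be told apart from the labels, and any effect of a pool would enter this test.

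In controls, none of the 76 genes passed the 24 h test, beside 5.55% of all genes, and 7 had an unadjusted p under 0.05, beside 19.4%. Mrps30 came closest, with an amplitude of 0.23 and a peak at ZT 22.5 (limma adjusted p = 0.0825). Its values were 20.5, 23.7, 20.3 and 24.2 FPKM at ZT0 and 17.6, 16.1, 16.1 and 14.9 FPKM at ZT12, and the 2 times did not overlap. In fits of the control groups alone 3 members passed, with 10.2% of all genes, and with library weights 5 did, with 18.6%, Mrps30 among them both times. Mrpl27, a protein near the peptidyl transferase centre, had an amplitude of 0.17 and a peak at ZT 11.1 (limma adjusted p = 0.156). Mrpl39 in controls had 13.7, 11.7, 12.4 and 12.5 FPKM at ZT0, 14.5, 13.96, 15.2 and 14.3 FPKM at ZT6, 15.6, 13.2, 13.4 and 14.8 FPKM at ZT12 and 15.7, 15.3, 15.6 and 15.2 FPKM at ZT18. Its amplitude was 0.094 (limma adjusted p = 0.189), with the low values at ZT0, where the mutants were high.

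The rhythm in mutants and in controls was compared in a test of its own, which no gene passed (0%, limma). Of the 76 members 6 had an unadjusted p under 0.05, beside 5.34% of all genes. Mrpl39 had the lowest, with a difference amplitude of 0.21 (limma adjusted p = 0.880), and Mrpl20 followed with 0.33 and the same adjusted p. Any difference among the 4 times, averaged over genotypes, was called for Mrpl39 alone of the 76 (F = 8.43, limma adjusted p = 0.00755), beside 11.6% of all genes. At an unadjusted p under 0.05 there were 8 members, beside 26%. In this test 3 members were called with library weights (16.7% of all genes), 2 with centring on genes of similar length (10.4%) and none with TPM (10.7%). Without single libraries 1 or 2 were called (11% to 12.9% of all genes where 2 were). No member was called for a 12 h component, beside 0.0668% of all genes. The median 24 h amplitude of the members was 0.074 in mutants and 0.071 in controls, against 0.091 in mutants and 0.098 in controls for all genes.

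Genes that work with the mitochondrial ribosome had similar signs. Of 6 further ribosomal proteins with other names, such as the small-subunit protein Dap3 and the release factor Ict1, 6 were higher in mutants at ZT0 (median 0.16) and 6 lower at ZT6 (median -0.11). Of 26 genes for assembly and RNA modification, 24 were higher at ZT0 (median 0.12) and 22 lower at ZT6 (median -0.11). Mrm1, a methyltransferase of the large ribosomal RNA, had 0.37 at ZT0 (limma adjusted p = 0.358), and the GTPase gene Gtpbp10 had -0.25 at ZT6 (adjusted p = 0.471). Of 15 translation factors, 13 were higher at ZT0 (median 0.16) and 13 lower at ZT6 (median -0.072). Of 22 tRNA ligases, 20 were higher at ZT0 (median 0.16) and 21 lower at ZT6 (median -0.066). None of the genes in these lists was called in any genotype comparison.

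Nuclear genes of oxidative phosphorylation had the same signs, with 69 of 81 higher at ZT0 (median 0.12) and 76 of 81 lower at ZT6 (median -0.17). Of the genes of the cytosolic ribosome, 36 of 70 were higher at ZT0 (median 0.012) and 55 of 70 were lower at ZT6 (median -0.086). None of either list was called for genotype.

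Regulators of mitochondrial biogenesis were mixed, with 6 of 12 higher at ZT0 and 9 of 12 lower at ZT6. Esrra, the nuclear receptor that acts with PGC-1alpha on mitochondrial genes, averaged 46.6 ± 1.05 FPKM in mutants and 60.2 ± 2.02 FPKM in controls at ZT6 (SD, n = 4 each), a difference of -0.36 (limma adjusted p = 0.471). At ZT0 it averaged 58.1 ± 9.91 FPKM in mutants and 48.7 ± 4.92 FPKM in controls. Its genotypes were apart at ZT6, where 8.73% of all genes tested had every mutant below every control, and overlapped at ZT0. Ppargc1a, which encodes PGC-1alpha, averaged 9.48 ± 1.19 FPKM in mutants and 9.79 ± 1.45 FPKM in controls over all times (SD, n = 16 each; limma adjusted p = 0.903). Gabpb1 and Nrf1 had 0.29 and 0.23 at ZT12 (limma adjusted p = 0.139 and 0.155).

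Markers of the cell types in the muscle also differed in sign between genotypes at these times, with none called. At ZT0 those higher in mutants were 4 of 10 fast fibre, 0 of 9 slow fibre, 5 of 9 adipocyte, 1 of 9 lymphocyte, 0 of 5 macrophage, 1 of 5 endothelial, 0 of 5 fibroblast, 3 of 5 Schwann cell and 4 of 4 erythroid markers. At ZT6 they were 4 of 10 fast fibre, 2 of 9 slow fibre, 9 of 9 adipocyte, 9 of 9 lymphocyte, 5 of 5 macrophage, 4 of 5 endothelial, 5 of 5 fibroblast, 0 of 5 Schwann cell and 0 of 4 erythroid markers. The lymphocyte, macrophage, endothelial, fibroblast, Schwann cell and erythroid lists thus had their majority on opposite sides at the 2 times, and the fast fibre, slow fibre and adipocyte lists on the same side. The summed level of the lymphocyte markers was 37.8 ± 25.8 FPKM in mutants and 8.22 ± 9.07 FPKM in controls at ZT6 (SD, n = 4 each), and 14.8 ± 22.4 FPKM in mutants and 24.6 ± 24.8 FPKM in controls at ZT0. That of the fibroblast markers was 1178 ± 447 FPKM in mutants and 851 ± 148 FPKM in controls at ZT6, and 1009 ± 386 FPKM in mutants and 1236 ± 351 FPKM in controls at ZT0. That of the erythroid markers was 547 ± 239 FPKM in mutants and 816 ± 169 FPKM in controls at ZT6, and 677 ± 145 FPKM in mutants and 603 ± 241 FPKM in controls at ZT0. The defining lymphocyte markers Cd3g and Cd3d were listed at 0 in 9 and 8 of the 32 libraries. The part of these cells in the values of the mitochondrial ribosomal protein genes was not tested.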

How the data were processed

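RNA of gastrocnemius from 32 mice was sequenced from stranded mRNA libraries, as single reads of 100 cycles. The libraries were run as 4 pools with 8 samples each, per the labels' protocols, and their membership is not given in the sources used here. For each gene and library the authors deposited FPKM values computed on genome build mm10 per the submitters' processing notes. The aligner, the quantifier, the annotation and the strand of counting are not given in the sources used here. Columns were assigned to the 8 groups by the genotype and time in their names. Their library numbers, 0 to 3, name no mouse.

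Of 16634 entries, those reaching 1 FPKM in 4 or more libraries were tested (11975), 76 of the 77 members among them. On log2(FPKM + 1), which understates changes of low genes, 1 mean per group was fitted with limma 3.58.1 in R 4.3.3, with a trended prior (degrees of freedom: 24 residual, 3.37 prior). P-values are 2-sided and were adjusted by the Benjamini-Hochberg method over all genes tested, and a call is an adjusted p under 0.05. The genotypes were contrasted as mutant minus control, averaged over the times and for each time, with an F test of that difference by time, F tests of the 24 h cosine and sine in each genotype and of their difference, an F test of any difference among times and the 12 h component. The p-values set differences of group means against the spread between mice within groups, pooled over all 8 groups and moderated by the prior. Read counts were not recovered: 43.1% of low values in 878 genes lay within 0.1 of whole steps, against 20% with no steps.

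Members and gene lists were chosen with earlier results of these data known. For each comparison the text names the members with the lowest p-values, the members against the majority and those whose genotypes did not overlap. Overlaps and coding lengths come from the GENCODE annotation of the same genome, promoters from RefSeq. Scripts were tested on simulated data. Alternatives were a pseudocount of 0.1, no filter, a mean of at least 5 FPKM, quantile normalisation, median centring, library weights, fits of the compared groups alone and leaving out each library. Rescaling to TPM and centring on genes of similar length were added after seeing the data.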

Additional observations from a re-analysis of the deposited data

Results flagged for a closer look

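A search for single libraries apart from the rest of their group covered 13 members and the score over the 76 members. The 13 were taken for low p-values or as Mrps18 paralogs, Mrpl12 and Mrps12, and the other members were not examined. Each was examined in each of the 8 groups of 4 mice, so that the cases are not independent. A library stood apart by more than Dixon's criterion allows in 9 of these 112 cases, where chance gives about 1 in 20. Among the members these were Mrps21 in library 2 of the mutants at ZT0 (99.8 FPKM, low) and Mrpl33 in library 1 of the mutants at ZT18 (300.3 FPKM, high). In controls they were Mrpl42 in library 0 at ZT0 (277 FPKM, high), Mrpl43 and Mrps18a in library 0 at ZT12 (32.2 and 123 FPKM, both high), and Mrps30 and Mrps5 in library 3 at ZT18 (23.8 FPKM, high, and 13.6 FPKM, low). The score over the 76 members stood apart in control library 0 at ZT0 (0.048, high) and in control library 3 at ZT6 (-0.0071, low).

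The mean score of mutants minus that of controls was above 0 at ZT0 (0.15) and ZT12 (0.027) and below 0 at ZT6 (-0.15) and ZT18 (-0.044). This difference was not tested for the score. For single genes, the F test of the genotype difference by time (limma) called none of the 76.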

How the results depend on the processing

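No paired analysis was possible because the library numbers name no mouse, litter or day. Where a setting moved a count of called members, it did so as follows. With library weights, 4 members were called at ZT6 (1.94% of all genes) and 2 for the 24 h rhythm in mutants (6.28%, Mrps35 added). For the rhythm in controls 5 were called with weights (18.6%), namely Mrps30, Mrpl27, Mrpl20, Mrpl19 and Mrpl40. For any difference among times 3 were called with weights (16.7%). In fits of the compared groups alone, 0 members were called for the rhythm in mutants (2.08% of all genes). For the rhythm in controls 3 were called in such fits (10.2%), namely Mrps30, Mrpl40 and Mrps5. With TPM, 0 were called for the rhythm in mutants (3.67% of all genes) and 0 for any difference among times (10.7%). With centring on genes of similar length, 0 were called for the rhythm in mutants (3.83%) and 2 for any difference among times (10.4%). The median difference of the members at ZT6 was -0.073 with quantile normalisation and -0.045 with TPM, and at ZT12 it was -0.068 with centring on genes of similar length. The cause of these shifts was not tested.

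Leaving out each library in turn gave 0 to 3 called members at ZT12 and 0 to 1 for the genotype difference by time. The highest value of both came without library 3 of the mutants at ZT12 (3.72% and 0.209% of all genes). For the rhythm in mutants 1 to 2 were called, with 2 without library 2 of the mutants at ZT0, where Mrps5 was added (4.77%). For any difference among times 1 to 2 were called (11% to 12.9% of all genes where 2 were). The median difference ran from 0.10 to 0.18 at ZT0, from -0.18 to -0.13 at ZT6, from 0.0073 to 0.094 at ZT12 and from -0.083 to 0.0027 at ZT18. Signs at ZT0 turned without library 2 of the mutants for Mrps21 (-0.49 to 0.12 over all such fits), Mrps9 (-0.16 to 0.0052), Mrps18a (-0.15 to 0.016) and Mrps33 (-0.19 to 0.032), and without their library 3 for Mrps30 (-0.15 to 0.055). The small difference of Mrps5 at ZT6 was -0.014 with library weights and ran from -0.026 to 0.063 without single libraries. The precision is limited by 4 mice per group and by an unknown read depth.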
